A study of Mus musculus with 6 samples.

Results

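Glycolysis turns glucose into pyruvate in the cytosol, and pyruvate is then either reduced to lactate and exported or oxidised in mitochondria. Most steps have several isoenzymes, encoded by separate genes, that differ in affinity, regulation and usual tissue. Endothelial cells are known for drawing much of their ATP from glycolysis, with Pfkfb3, which makes the phosphofructokinase activator fructose 2,6-bisphosphate, as a known control point. The 32 genes described here cover glucose uptake, each enzymatic step to pyruvate, lactate dehydrogenase, lactate transport and the entry of pyruvate into mitochondria. They were chosen by gene symbol and matched 33 of the 54532 rows of the count table, since 2 rows carry the symbol Aldoa.

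RNA-seq was run on cultures labelled as aortic endothelial cells (MAEC) from wild-type mice, with 3 female and 3 male libraries. Both sexes received no treatment, and the medium was F-12 supplemented with serum, antibiotics, heparin and growth factors for endothelium. The strain and age of the mice are not given in the labels, nor is it said whether each library stands for its own animal or culture. The p-values therefore measure only the spread between these libraries, which may be technical.

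Libraries held 17410996 to 22993574 counts. Xist was higher in each of the 3 female libraries than in any male one, and 4 Y-linked genes (Uty, Kdm5d, Ddx3y and Eif2s3y) were counted in 3 of 3 male and 0 of 3 female libraries. The labelled cell type was not borne out by its markers. Of 14 endothelial markers, 12 stayed under 1 CPM (TMM-scaled counts, each relative to its own library total) in all 6 libraries, and Cdh5, Tie1, Cldn5 and Robo4 had 0 counts throughout. Eng and Flt1 were the other two. All 8 fibroblast markers were tested, with a summed level of 7098 to 7556 CPM in female against 4619 to 4922 CPM in male libraries. Among them edgeR called Dcn, Fbln1, Lum and Pdgfra higher in female and Thy1 lower (205 ± 5.26 against 289.8 ± 43.2 CPM, adjusted p = 0.0208), and did not call Col1a1, Col1a2 and Mfap5. Pericyte markers summed to 1668 to 1714 and 1617 to 1997 CPM, smooth muscle markers to 114 to 117 and 138 to 172 CPM, and leukocyte markers to 12.6 to 18.1 and 6.29 to 10.3 CPM in female and male libraries. These sums held opposite calls: of the pericyte markers Pdgfrb was lower (352 ± 21.6 against 831 ± 103 CPM) and Rgs5 higher (1312 ± 38.0 against 969.9 ± 121 CPM). Of the smooth muscle markers Acta2 was lower (3.23 ± 0.749 against 20.3 ± 6.01 CPM), while Smtn made up most of the sum and was not called. Mesothelial, red blood cell and adipocyte markers summed to at most 1.08 CPM in any library. The part of these cell type markers in the results below was not tested, and in bulk RNA fewer cells of a type and less RNA per cell cannot be told apart. Male replicate 3 correlated less with its fellow male libraries in log2 CPM (0.966 and 0.973) than those did with each other (0.988), so counts are also given without it.

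All 33 rows passed the filter on low counts. Below, ± is the standard error for a log2 fold change (female over male) and the SD over 3 libraries for a level or share. By edgeR's quasi-likelihood test (Benjamini-Hochberg adjusted p under 0.05 over all 14932 tested genes), 6 members were higher in female, 3 lower, and 24 were not called. The called share of 27.3% stands beside 18.3% of all tested genes called, 9.68% higher and 8.62% lower. The higher genes were the glucose transporters Slc2a1 and Slc2a3, the regulator Pfkfb3, the enolase Eno2, the lactate dehydrogenase Ldhb and the lactate exporter Slc16a3. The lower genes were the phosphofructokinase Pfkp, the pyruvate dehydrogenase kinase Pdk4 and the monocarboxylate transporter Slc16a1. Without male replicate 3 the counts were 7 higher and 7 lower, beside 2511 higher and 2540 lower of all 15462 genes then tested. Without female replicate 2 they were 3 and 3, beside 967 and 903 of 15482. With all libraries 1446 and 1287 of the 14932 genes were called, so the calls of all genes shifted too. The median log2 fold change of the members was -0.16, against -0.01 for all tested genes, and it was -0.04 without male replicate 3.

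**Figure D1:**
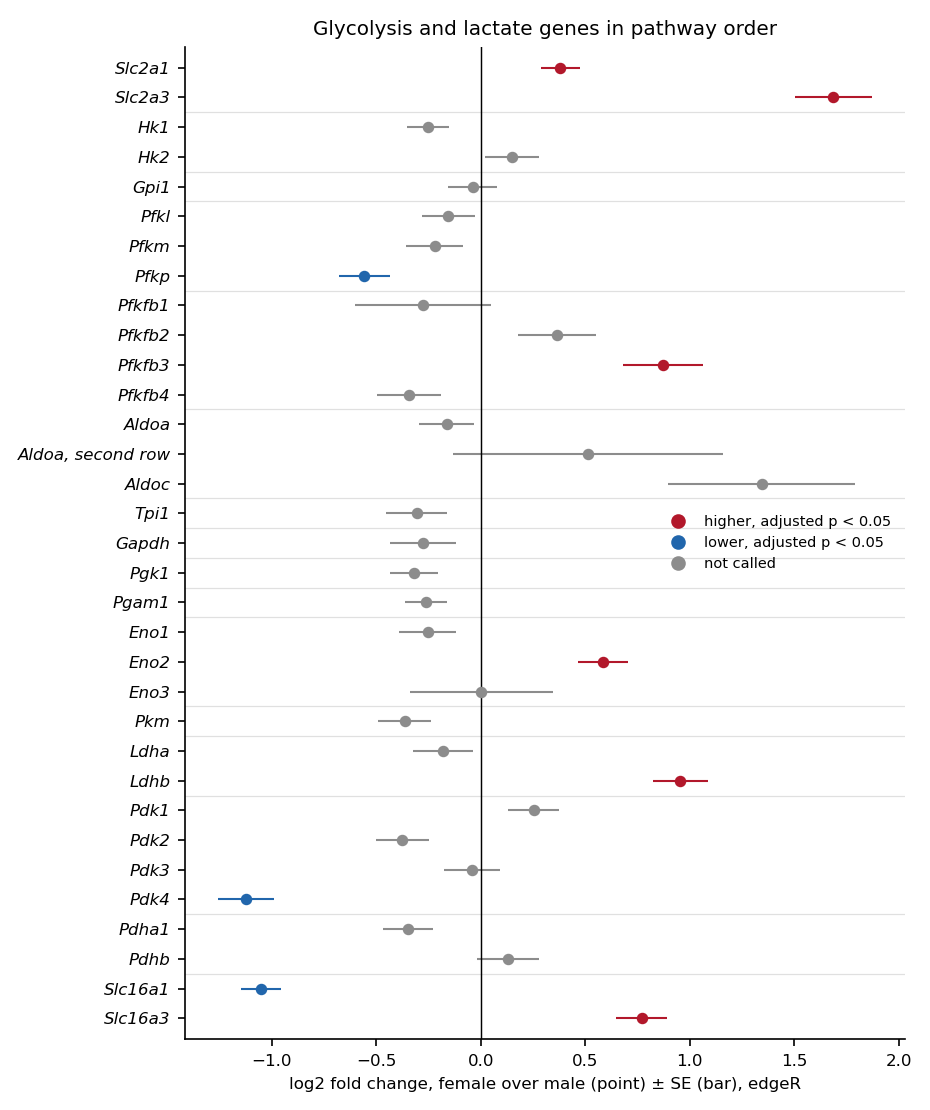
The log2 fold change of female over male (horizontal axis, point) with its edgeR standard error (bar) is drawn for the 33 rows in pathway order, with grey lines between steps. Red and blue points are the 6 higher and 3 lower calls; the grey points from Tpi1 to Eno1 sit on the negative side without a call.

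Promoter sequences are shown for the 5 called genes with the smallest p that have an entry among the RefSeq promoters, because members at opposite ends of the comparison can be set side by side. They run from 250 bases before to 50 bases after the annotated start, on the gene's own strand (RefSeq, GRCm38.p6). Capitals mark ACGTG or GCGTG on either strand, the core of the site that hypoxia-inducible factors bind. CACGTG, an E-box, overlaps ACGTG and counts on both strands. The first 2 genes were lower in female and the other 3 higher.
Slc16a1, chr3:104638414-104638713, plus strand: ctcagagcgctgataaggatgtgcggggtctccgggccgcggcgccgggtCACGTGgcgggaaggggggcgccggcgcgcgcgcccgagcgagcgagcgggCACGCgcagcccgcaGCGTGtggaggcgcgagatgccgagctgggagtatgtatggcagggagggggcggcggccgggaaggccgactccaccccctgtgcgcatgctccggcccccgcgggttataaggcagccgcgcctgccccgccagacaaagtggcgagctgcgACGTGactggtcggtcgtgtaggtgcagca
Pdk4, chr6:5496229-5496528, minus strand: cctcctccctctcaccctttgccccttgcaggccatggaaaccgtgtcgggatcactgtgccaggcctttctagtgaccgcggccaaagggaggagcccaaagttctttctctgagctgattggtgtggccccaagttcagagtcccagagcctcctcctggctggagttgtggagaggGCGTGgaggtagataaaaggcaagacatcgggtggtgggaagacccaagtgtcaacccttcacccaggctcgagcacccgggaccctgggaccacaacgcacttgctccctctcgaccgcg
Ldhb, chr6:142507908-142508207, minus strand: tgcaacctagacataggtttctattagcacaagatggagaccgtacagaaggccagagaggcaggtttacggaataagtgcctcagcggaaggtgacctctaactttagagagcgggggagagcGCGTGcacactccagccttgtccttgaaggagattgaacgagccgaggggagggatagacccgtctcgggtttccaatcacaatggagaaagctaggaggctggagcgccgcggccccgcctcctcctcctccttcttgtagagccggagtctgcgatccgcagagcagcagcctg
Slc16a3, chr11:120948817-120949116, plus strand: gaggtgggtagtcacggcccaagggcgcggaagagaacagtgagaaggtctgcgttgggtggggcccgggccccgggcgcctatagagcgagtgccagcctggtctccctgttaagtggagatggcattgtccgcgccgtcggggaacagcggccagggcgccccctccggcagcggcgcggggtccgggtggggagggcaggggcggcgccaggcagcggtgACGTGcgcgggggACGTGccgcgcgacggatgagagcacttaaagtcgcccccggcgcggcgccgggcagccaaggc
Eno2, chr6:124769624-124769923, minus strand: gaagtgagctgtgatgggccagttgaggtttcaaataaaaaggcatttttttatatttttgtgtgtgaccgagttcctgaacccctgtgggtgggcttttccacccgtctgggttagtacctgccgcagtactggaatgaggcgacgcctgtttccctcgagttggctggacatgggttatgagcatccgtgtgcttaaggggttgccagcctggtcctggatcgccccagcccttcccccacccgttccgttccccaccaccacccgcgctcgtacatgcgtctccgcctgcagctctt
Slc16a1 had 5 matches, one pair of which is the E-box at its first capitals, Slc16a3 had 2, Pdk4 and Ldhb had 1 each, and Eno2 had 0. Among the 31 members with a RefSeq promoter, 28 had a match in at least one of their promoters, namely 4 of 5 called higher, 3 of 3 called lower and 21 of 23 not called. Counted by promoter, 76% of the 50 member promoters and 43.8% of all 32851 promoters of this length held at least one of the motifs marked in capitals. The E-box was in 12% and 7.15%. The 50 member promoters come from 31 genes, some with several that overlap, so they are not separate cases. The share by gene was not counted for all genes. ACGTG and GCGTG both hold CG, and the promoters were not matched for base content. The matches are a description of letters, not of bound sites.

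Glucose enters through facilitative transporters, of which Slc2a1 (GLUT1) is the widespread form and Slc2a3 (GLUT3) a high-affinity form best known from neurons. Slc2a3 (chromosome 6, 122727809 to 122801640) stood at 30.6, 31.0 and 27.3 CPM in female replicates 1 to 3 and at 11.4, 9.18 and 6.996 CPM in male ones. The sexes did not overlap, and the log2 fold change was 1.69 ± 0.18 (SE; edgeR adjusted p = 0.000157), the largest rise among the called members. It overlaps the pseudogene Gm4482 on its own strand. Slc2a1 (chromosome 4, 119108711 to 119137983) had 274, 280.3 and 264 CPM in female against 209.7, 208 and 211 CPM in male libraries. Its log2 fold change was small, 0.38 ± 0.10 (edgeR adjusted p = 0.0201), and the call was lost without any single female replicate or male replicate 2 (adjusted p 0.0715 to 0.132). Per kilobase of the deposited gene length, Slc2a1 was the main transporter, but Slc2a3 made up 5.00 ± 0.199% of the pair in female and 2.08 ± 0.488% in male libraries. That length often exceeds the length of a transcript, unequally between isoenzymes, so the shares per length here and below depend on it. Of 12 tested further isoenzymes of these steps, 2 were called, both lower, a share of 16.7% that lies near the 18.3% of all tested genes. One was Slc2a9, known for carrying urate, which fell to 1.51 ± 0.431 CPM in female libraries from 3.69 ± 0.552 in male ones (edgeR adjusted p = 0.016, lost without female replicate 1 or 2 at 0.0665 and 0.0681).

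**Figure D2:**
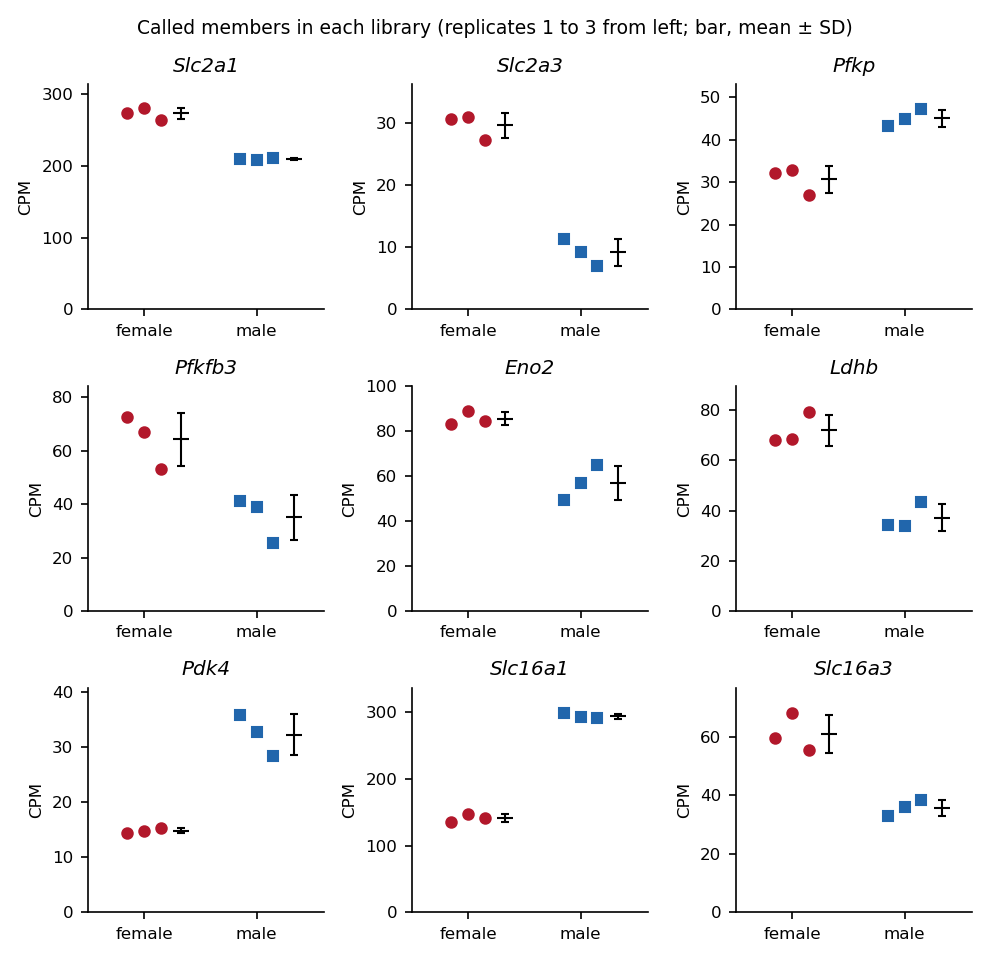
The 9 called members are plotted in CPM (vertical axes, from 0) for each of the 3 female and 3 male libraries, with replicates 1 to 3 from left and the mean ± SD beside them. In 9 of 9 panels the sexes do not overlap, and male replicate 3 gives the lowest male value of Slc2a3, Pfkfb3, Pdk4 and Slc16a1 and the highest of the other 5.

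Hexokinases trap glucose as glucose 6-phosphate, and neither form was called. Hk1, the housekeeping form, had 119, 131 and 126 CPM in female against 142, 146 and 159.6 CPM in male libraries, without overlap (a log2 fold change of -0.25 ± 0.10, with edgeR adjusted p = 0.128). Hk2, the insulin- and hypoxia-responsive form, had 49.3, 50.4 and 49.2 CPM in female against 49.5, 47.7 and 37.3 CPM in male libraries, with overlap and with male replicate 3 lowest. The Hk2 share of the pair per length was 36.2 ± 0.929% and 30.0 ± 4.39% in female and male libraries. The difference of 6.16 percentage points was 3.66 without male replicate 3.

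Phosphofructokinase 1 commits the sugar to glycolysis, and its enzyme is a tetramer of liver (Pfkl), muscle (Pfkm) and platelet (Pfkp) type subunits. Pfkp (chromosome 13, 6579768 to 6648777) was called lower, with 32.1, 32.9 and 27.0 CPM in female against 43.3, 44.9 and 47.2 CPM in male libraries (a log2 fold change of -0.56 ± 0.12, with edgeR adjusted p = 0.00976, and 0.0502 without female replicate 3). Pfkp overlaps Pitrm1 on the opposite strand, and whether the counting used strand is not known. Over the 6 libraries Pitrm1 had 7496 counts and Pfkp 4661. Of the 50-base stretches of Pfkp, 17.1% also occur in transcripts of Pitrm1, and the part of this in the Pfkp call was not tested. Pfkm likewise overlaps Senp1. Pfkl (edgeR adjusted p = 0.471) and Pfkm (0.327) overlapped between the sexes. Per length Pfkl was the most abundant subunit, at 60.4 ± 0.677% and 58.3 ± 1.71% of the 3, while Pfkp made up 5.82 ± 0.568% in female and 7.47 ± 0.606% in male libraries.

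The 4 bifunctional Pfkfb enzymes set the level of fructose 2,6-bisphosphate; Pfkfb3 has the highest kinase activity relative to its phosphatase activity. Pfkfb3 (chromosome 2, 11471433 to 11554077) had 72.6, 66.8 and 53.3 CPM in female libraries and 41.0, 38.8 and 25.4 CPM in male ones. The spread within each sex was wide, yet the lowest female library exceeded the highest male one (a log2 fold change of 0.87 ± 0.19, with edgeR adjusted p = 0.0105). The call was lost by a small margin without female replicate 1 (adjusted p = 0.055) or 2 (0.0516). Pfkfb4, a form induced in tumours, was 9.91, 9.22 and 11.6 CPM in female against 12.8, 13.7 and 12.6 CPM in male libraries (a log2 fold change of -0.34 ± 0.15, with edgeR adjusted p = 0.17, not called). Within the family Pfkfb3 made up 65.4 ± 4.26% per length in female and 49.4 ± 4.55% in male libraries, and Pfkfb4 16.4 ± 3.47% and 29.1 ± 4.38%, without overlap for either. The heart type Pfkfb2 (13.9 ± 1.96 and 10.8 ± 2.00 CPM, edgeR adjusted p = 0.23) and the liver type Pfkfb1 (1.72 ± 0.264 and 2.07 ± 0.461 CPM, edgeR adjusted p = 0.631) were not called. Pfkfb2 overlaps Yod1 and Pfkfb1 overlaps Apex2 on the opposite strand.

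**Figure D3:**
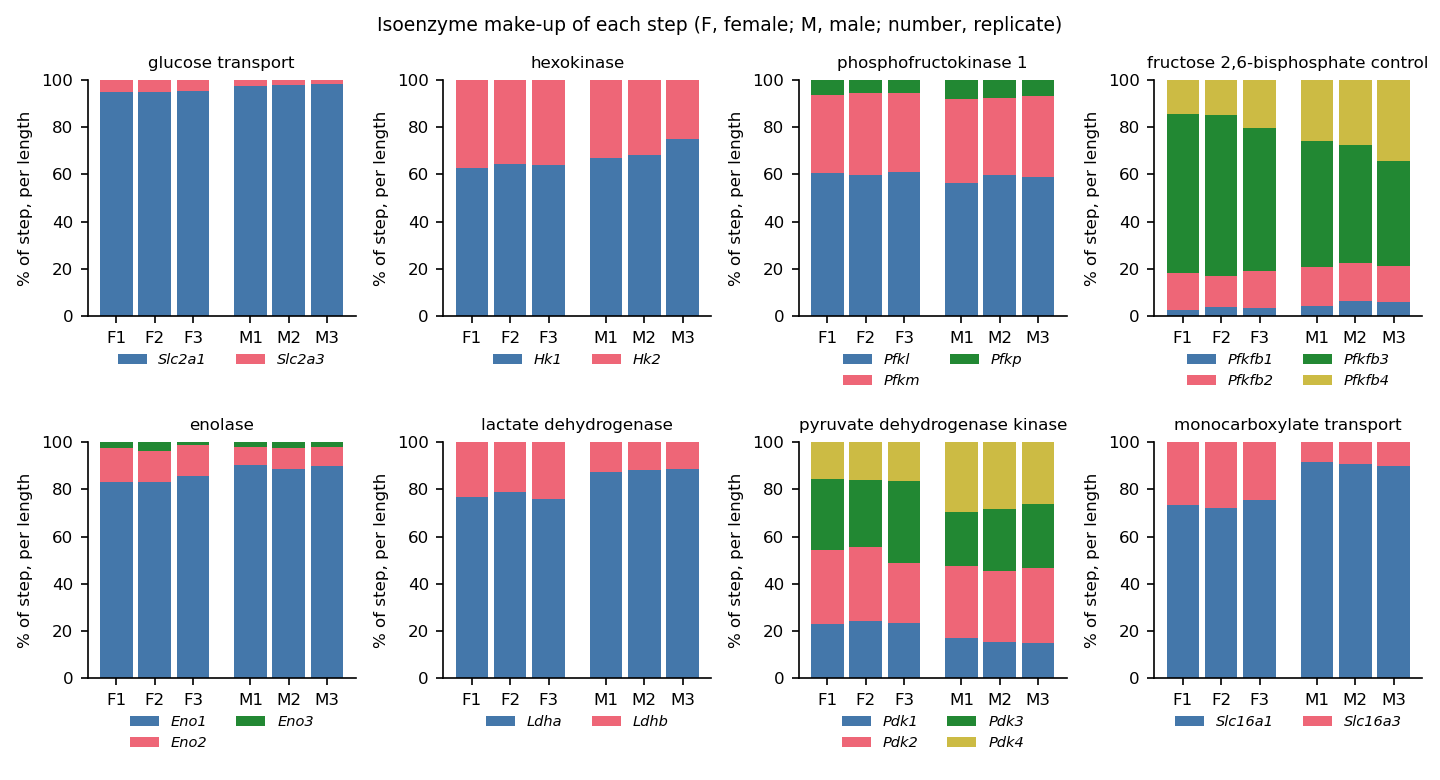
Stacked bars give, for each library (F, female; M, male; with the replicate number), the percentage of a step's summed level per kilobase that each isoenzyme contributed. In percentage points the differences between the sexes are widest for Slc16a3 (17.2, with Slc16a1 as its mirror), Pfkfb3 (16.1), Pfkfb4 (-12.7), Pdk4 (-11.9) and Ldhb (10.9, with Ldha as its mirror).

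The main enzymes of the common path, taking the most abundant isoenzyme of each step from Gpi1 to Ldha, form a group of 10 genes. edgeR called 0 of 10, beside 18.3% of all tested genes. All 10 had a negative log2 fold change (-0.37 to -0.04), where the median of all tested genes was -0.01. Of these, Gpi1 turned positive in limma-voom with quality weights (0.06), with a length and GC offset (0.02) and without male replicate 3 (0.06). At an unadjusted p under 0.05 there were 3 of 10, a share not counted for all tested genes. Pkm, the pyruvate kinase of most tissues, had 985, 1069 and 1048 CPM in female against 1149, 1327 and 1521 CPM in male libraries (a log2 fold change of -0.37 ± 0.13, with edgeR adjusted p = 0.0798). The sexes did not overlap for Pkm, Pgk1, Pgam1, Eno1 and Gapdh, 5 of the 10, beside 35.9% of all tested genes (16.7% with female lower). Pgk1, which makes the first ATP of the path, had 273, 306 and 304 CPM in female libraries and 335, 355 and 412 CPM in male ones. The mutase Pgam1 had 170.1, 175 and 171 CPM in female libraries and 196, 221 and 202 CPM in male ones. Eno1, the widespread enolase, had 554, 632 and 651 CPM in female libraries and 668, 661 and 863 CPM in male ones. Each male library thus lay above every female one for these 3 genes. The isomerases Gpi1 (474 ± 16.6 and 487 ± 58.6 CPM) and Tpi1 (259 ± 20.7 and 321 ± 60.6 CPM) overlapped between the sexes. In 8 of the 10, male replicate 3 was the highest of all 6 libraries, as for Aldoa at 1369 CPM against 1016 and 1133 CPM in the other male libraries. How often male replicate 3 was the highest among all tested genes was not counted. Without male replicate 3, Pkm (edgeR adjusted p = 0.031) and Pgam1 (0.0194) were called lower, and Pkm also without male replicate 1 (0.0247). The log2 fold change of Pkm without male replicate 3 was -0.26, against -0.37 with all libraries. Leaving out 1 library at a time, Aldoa ran from -0.26 to -0.04, Ldha from -0.28 to -0.02 and Pfkl from -0.24 to -0.04. Eno1 ran from -0.33 to -0.12 and Tpi1 from -0.41 to -0.15. The size of these differences thus varied with the libraries kept. DESeq2 called 8 members lower, among them Pkm, Pgk1 and Pgam1, beside 1608 of all 14932 tested genes (1287 with edgeR).

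These enzymes differ in how far their transcripts can be told from copies elsewhere in the genome. Gapdh, long used as a reference gene, had 153 to 254 counts per library and a level of 2.16 ± 0.162 CPM per kilobase in female libraries. Pgk1, the next enzyme in the path, stood at 131 ± 8.21 CPM per kilobase there. Of the 50-base stretches of the Gapdh transcript, 82.5% occur exactly in transcripts of other genes, spread over 222 genes. Over the 6 libraries those of them in the count table held 7125 counts, and Gapdh held 1225. Pgk1 (68.0%) and Eno1 (72.2%) shared nearly as much. Smaller shares were found for Pgam1 (41.5%), Pkm (34.4%), Pdhb (30.3%), Gpi1 (25.3%), Pfkfb2 (25.1%), Ldha (17.1%), Pdha1 (16.9%) and the called gene Ldhb (27.0%, with a single gene that had 4 counts in all). Levels of these genes are uncertain for this reason, and the part of shared sequence in the low Gapdh count was not tested. Pkm also overlaps another gene model on its own strand. On the opposite strand Gapdh overlaps Iffo1 (4152 counts in the 6 libraries) and Tpi1 overlaps Spsb2 (2242, against 35562 for Tpi1).

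Aldolase and enolase each had a minor form that is best known from the nervous system. Eno2 (gamma enolase; chromosome 6, 124760053 to 124769673) had 83.1, 89.0 and 84.6 CPM in female against 49.5, 56.9 and 64.7 CPM in male libraries, without overlap (a log2 fold change of 0.58 ± 0.12, with edgeR adjusted p = 0.00792, and 0.0501 without female replicate 2). Its share of enolase per length was 13.5 ± 0.774% in female and 8.04 ± 0.607% in male libraries, the rest being almost all Eno1. The muscle form Eno3 stood at 5.80 ± 2.95 and 5.76 ± 0.987 CPM (edgeR adjusted p = 0.998). Aldoc had 1.69, 1.91 and 1.15 CPM in female against 0.581, 0.441 and 0.853 CPM in male libraries, again without overlap, but edgeR did not call it (10 to 37 counts per library; log2 fold change 1.34 ± 0.45, edgeR adjusted p = 0.0687). It was called without male replicate 3 (0.0335), by DESeq2 (0.0432) and by limma-voom with quality weights (0.00138). The second row with the symbol Aldoa had at most 0.731 CPM in any library.

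On chromosome 6, Eno2, Tpi1 and Gapdh lie between 124760053 and 125166467, and of these 3 only Eno2 was called. The other called members of chromosome 6 were Slc2a3 and Ldhb (higher) and Pdk4 (lower). The share of all tested genes called on chromosome 6 or X was not counted. Of the 4 X-linked members, Pgk1, Pdk3, Pdha1 and Pfkfb1, edgeR called 0, beside 18.3% of tested genes on all chromosomes. At an unadjusted p under 0.05 it passed Pgk1 and Pdha1. DESeq2 called both lower, and limma-voom with quality weights did too.

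Lactate dehydrogenase is a tetramer of A subunits, favoured in tissues that make lactate, and B subunits, favoured in tissues that use it. Ldhb (chromosome 6, 142490249 to 142507957) had 67.9, 68.6 and 79.1 CPM in female against 34.1, 34.0 and 43.2 CPM in male libraries. The sexes lay far apart (a log2 fold change of 0.96 ± 0.13, with edgeR adjusted p = 0.000732). Ldha had 476, 538 and 532 CPM in female against 504, 543 and 705 CPM in male libraries, with overlap (a log2 fold change of -0.18 ± 0.14, with edgeR adjusted p = 0.448). Per length the ratio of Ldha to Ldhb was 3.33, 3.72 and 3.19 in female and 7.003, 7.58 and 7.74 in male libraries. Ldha was thus the main form in both sexes, and Ldhb made up 22.7 ± 1.37% in female against 11.9 ± 0.558% in male libraries. These shares depend on the deposited lengths of Ldha and Ldhb, 3310 and 1570 bases, which exceed their GENCODE transcripts of 1766 and 1304. The sum of Ldha and Ldhb per length hardly differed, at 201 ± 12.7 and 200.1 ± 35.6 CPM per kilobase.

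Monocarboxylate transporters carry lactate and pyruvate with a proton; Slc16a1 (MCT1) is the widespread form and Slc16a3 (MCT4) a low-affinity form typical of lactate-exporting cells. Slc16a1 (chromosome 3, 104638668 to 104658462) had 136, 148 and 141 CPM in female against 297, 292 and 290.2 CPM in male libraries. This was the member with the smallest p (a log2 fold change of -1.05 ± 0.10, with edgeR adjusted p = 5.00e-05), and the male values lay within a narrow range. Slc16a3 (chromosome 11, 120948480 to 120960868) moved the other way, with 59.5, 68.1 and 55.4 CPM in female against 32.995, 35.9 and 38.3 CPM in male libraries (a log2 fold change of 0.77 ± 0.12, with edgeR adjusted p = 0.0016). The ratio of Slc16a1 to Slc16a3 per length was 2.80 ± 0.230 in female and 9.90 ± 0.875 in male libraries. Slc16a3 made up 26.4 ± 1.56% of the pair in female libraries and 9.21 ± 0.729% in male ones. As Slc16a1 was the more abundant, the sum of both was lower in female, at 59.5% of the male mean. Of the chaperones that bring these transporters to the membrane, Bsg (basigin) was 692 ± 51.5 and 680 ± 117 CPM (edgeR adjusted p = 0.928), while Emb (embigin) fell to 53.0 ± 2.31 CPM in female libraries from 87.8 ± 1.72 in male ones (edgeR adjusted p = 0.000625). Slc16a7 (MCT2) was scarce, with 3, 3 and 6 counts in female and 51, 15 and 11 counts in male replicates 1 to 3. Its call as lower (edgeR adjusted p = 0.0295) was lost without any female replicate or male replicate 1 (0.0806 to 0.17).

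**Figure D4:**
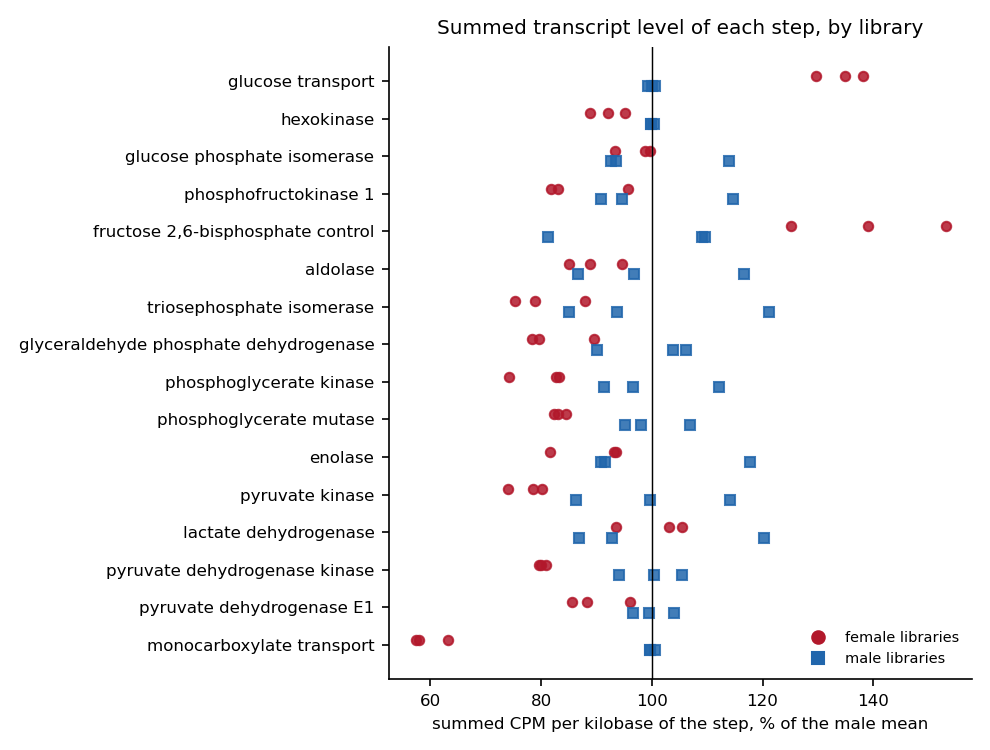
The summed level of each step per kilobase is plotted for every library as a percentage of the male mean (horizontal axis), with circles for female and squares for male libraries. Glucose transport (134% in female) and Pfkfb (139%) lie above the male libraries, monocarboxylate transport (59.5%) below them, and lactate dehydrogenase (101%) among them.

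Pyruvate dehydrogenase kinases switch off the complex that sends pyruvate into the citric acid cycle, and Pdk4 is the form induced by fasting and fatty acids. Pdk4 (chromosome 6, 5483351 to 5496309) had 14.4, 14.7 and 15.4 CPM in female against 35.8, 32.8 and 28.4 CPM in male libraries (a log2 fold change of -1.12 ± 0.14, with edgeR adjusted p = 0.000281), the lowest log2 fold change among the members. The other 3 kinases were not called. Pdk1, a known hypoxia target, had 47.6, 50.1 and 48.9 CPM in female against 46.9, 39.6 and 36.5 CPM in male libraries (edgeR adjusted p = 0.205). Pdk2 had 24.5 ± 2.65 and 31.8 ± 1.12 CPM (edgeR adjusted p = 0.0735, and 0.0205 without male replicate 3), and Pdk3 20.98 ± 2.41 and 21.6 ± 0.847 CPM (edgeR adjusted p = 0.871). Per length Pdk4 made up 15.97 ± 0.417% of the family in female and 27.9 ± 1.69% in male libraries, and Pdk1 23.8 ± 0.695% and 15.9 ± 1.21%. The enzyme's own E1 subunits were not called: Pdha1 had 79.7, 78.4 and 76.0 CPM in female against 103, 111 and 85.2 CPM in male libraries (a log2 fold change of -0.35 ± 0.12, with edgeR adjusted p = 0.0758), and Pdhb overlapped (edgeR adjusted p = 0.615). Pdha1 was called lower without male replicate 3 (adjusted p = 0.000576).

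Other genes of the same metabolism were read from a list of 108, of which 87 were tested, 12 were higher and 11 lower (26.4% called, beside 18.3% of all tested genes, 9.68% higher and 8.62% lower). Of 14 tested genes of mitochondrial pyruvate use and transporter chaperones, 3 fell, Emb among them, and 11 were not called (21.4% called, near the 18.3% of all tested genes). Pdp1, a phosphatase that reactivates pyruvate dehydrogenase and so opposes the Pdk kinases, fell from 45.0 ± 4.69 to 27.2 ± 1.04 CPM (edgeR adjusted p = 0.00223). Pcx, which makes oxaloacetate from pyruvate, fell from 19.0 ± 0.63 to 11.2 ± 1.47 CPM (edgeR adjusted p = 0.00551). The 8 tested pentose phosphate genes and 2 of gluconeogenesis were not called. Of these Rpe, an epimerase of pentose phosphates, had the smallest p (38.3 ± 2.07 and 31.0 ± 1.90 CPM, edgeR adjusted p = 0.101), and limma-voom with quality weights called it higher. Among 12 glycogen genes 1 rose and 2 fell (25% called, beside 18.3%). Pygl, the liver-type glycogen phosphorylase, stood at 40.2 ± 2.91 CPM in female libraries and 3.29 ± 0.243 in male ones (a log2 fold change of 3.61 ± 0.15, with edgeR adjusted p = 5.39e-07), more than any member. Ppp1r3c, a glycogen-targeting phosphatase subunit, fell by 0.94 ± 0.15 in log2 units (adjusted p = 0.00148 by edgeR), and Gbe1, the branching enzyme, by 0.47 ± 0.13 (0.0308, lost without female replicate 1 or 2 or male replicate 1 or 2, at 0.0528 to 0.127). Of the 4 tested genes of the glycerol phosphate shuttle and hexosamine synthesis, Gfpt2 fell by 0.47 ± 0.10 (adjusted p = 0.0076 by edgeR, rising to 0.0566 without female replicate 2).

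**Figure D5:**
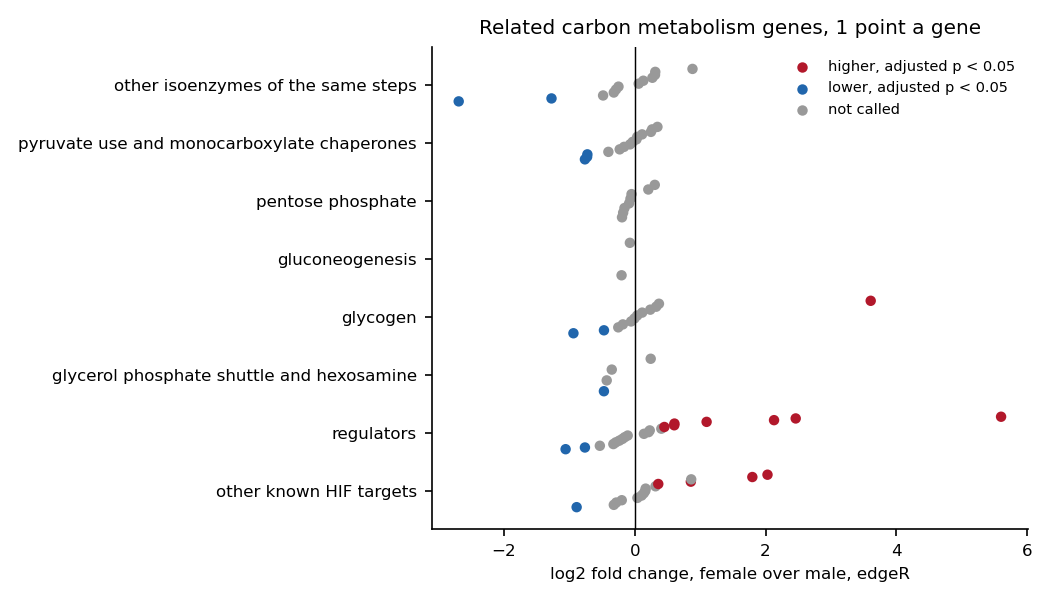
Each point is 1 tested gene of the related lists, at its log2 fold change of female over male (horizontal axis), coloured by call. Pygl stands apart among the glycogen genes at 3.61, and the regulators hold 7 higher and 2 lower calls.

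Of 20 tested regulators of glycolytic genes, 7 were higher and 2 lower (45% called, beside 18.3% of all tested genes). Hif1a, the oxygen-regulated subunit of the factor that activates many glycolytic genes, stood at 355 ± 17.2 CPM in female libraries and 233 ± 38.3 in male ones (a log2 fold change of 0.61 ± 0.13, with edgeR adjusted p = 0.0104). That call was lost without female replicate 1 (0.0542), female replicate 3 (0.0626) or male replicate 2 (0.063). Egln3, an oxygen-sensing hydroxylase and itself a target of the factor, rose by 2.13 ± 0.11 (edgeR adjusted p = 1.78e-06). The arrestin-like proteins Txnip and Arrdc4 both restrain glucose uptake and are both induced by glucose, and they went opposite ways. Txnip was 158 ± 2.16 CPM in female and 267 ± 8.48 in male libraries (adjusted p = 0.000359 by edgeR), and Arrdc4 170.4 ± 10.8 and 79.5 ± 9.65 CPM (edgeR adjusted p = 0.000168). Ppargc1a, a coactivator of mitochondrial genes, was 3.45 ± 1.08 CPM in female libraries and 0.0631 ± 0.0664 in male ones, with 0, 3 and 1 counts in male replicates 1 to 3 (edgeR adjusted p = 0.000211). Of 15 other known targets of hypoxia-inducible factors, 4 rose and 1 fell (33.3% called, beside 18.3%). Ankrd37 rose by 2.03 ± 0.30 and Adm (adrenomedullin) by 0.86 ± 0.12 (edgeR adjusted p = 0.001 and 0.000785). Vegfa rose by 1.80 ± 0.10 (2.96e-06) and Bnip3 by 0.36 ± 0.11 (0.0468). Ero1l, an oxidase of protein folding, fell by 0.89 ± 0.16 (edgeR adjusted p = 0.00418).

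Across all 33 rows the sexes did not overlap for 9 members higher and 12 lower in female, where 35.9% of all tested genes did not overlap (19.2% higher, 16.7% lower). Of the 17 averaging 1000 counts or more, 5 were called, beside 18.9% of all tested genes that abundant. Together the members made up 0.595 ± 0.0282% of all female counts and 0.655 ± 0.0676% of all male ones, overlapping. Male replicate 3, at 0.729%, held the highest share and was also the highest of the 6 libraries for 11 members, a count not made for all tested genes. Pkm, Aldoa, Eno1, Ldha and Gpi1 supplied 63.7% of member counts, and edgeR called 0 of these 5 (1 at an unadjusted p under 0.05, Pkm, which DESeq2 called lower). Dividing by length matters for some shares: by raw counts the female minus male difference was 5.61 percentage points instead of 2.92 for Slc2a3, -3.46 instead of -1.65 for Pfkp, 6.25 instead of 10.9 for Ldhb and 12.5 instead of 7.82 for Pdk1.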

How the data were processed

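RNA-seq counts per gene were deposited by the authors for 3 female and 3 male libraries as whole-number read counts, not normalized. The submitters' processing notes name HISAT2 2.0.5 and featureCounts 1.5; the build, the strand setting and the handling of reads that match several genes were not given in the sources used here. Per the labels' protocols, RNA was selected by poly-T beads, and both a directional and a non-directional library kit are described. Of the gene IDs, 99.9% are in GENCODE M21 (GRCm38), 98.3% with the same coordinates, and the coordinates printed are those of the deposited table.

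Genes passing edgeR's filterByExpr (minimum count 10) were scaled by TMM and tested with the robust quasi-likelihood test (edgeR 4.0.16, R 4.3.3), with Benjamini-Hochberg adjustment over all 14932 genes. The scripts were tested on simulated data. CPM are TMM-scaled; 3 counts, the limit that a count of 0 allows, come to 0.130 to 0.172 CPM by library, for counting error only. Levels were compared between genes only after division by the deposited gene length. It often exceeds the length of the GENCODE transcript taken for the gene, by unequal factors. For Hk1 and Hk2 it was 8532 and 5969 bases against 3851 and 5513. For Eno1 and Eno2 it was 5379 and 4705 against 2027 and 2795, and for Pfkp 13401 against 4145. Shares by transcript length were not computed. Isoenzyme shares, step sums and medians are descriptions with no test. Sequence sharing was counted as exact 50-base stretches between GENCODE transcripts. The alternatives comprised scaling by RLE or the upper quartile, other tests (limma 3.58.1 as voom with quality weights, DESeq2 1.42.0), other filters, a replicate block, a length and GC offset, a threshold of 0.01 and leaving out each library.

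The members and lists were chosen with earlier results of these data known. All members are named, and up to 3 genes with the smallest p in each related list. Hif1a, Epas1 and the regulators named beside them were named after their values were seen. So were Txnip, Bsg, Bnip3, Ero1l and single cell type markers.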

Additional observations from a re-analysis of the deposited data

How the results depend on the processing

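Under each of the 8 other scalings, tests, filters and designs, the 9 called members remained called, while at a threshold of 0.01 there were 4 higher and 3 lower, without Slc2a1 and Pfkfb3. Leaving out 1 library kept 6 to 9 of them. Members called higher numbered 3 to 7 and lower 2 to 7 across these omissions, and their median log2 fold change ran from -0.24 to -0.038. The low end of the higher calls came without female replicate 2 and the high ends without male replicate 3. Members called lower rose from 3 to 8 with DESeq2, 11 with limma-voom with quality weights and 7 with a length and GC offset. For all tested genes (1446 higher, 1287 lower), DESeq2 gave 1666 and 1608, limma-voom 3305 and 3288, and the length and GC offset 1876 and 1864. A threshold of 0.01 gave 900 and 835, and leaving out 1 library gave 967 to 2511 and 903 to 2540. Related genes called lower rose from 11 to 23 with limma-voom. Without 1 library the related counts were 8 to 19 higher and 7 to 20 lower. The cause of these shifts was not tested.

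Same-numbered libraries correlated at 0.206, -0.00405 and 0.152 in their deviations. Female replicates 1 and 3 were closest to the male library of their own number, while female replicate 2 was closest to number 3 (0.104). A pairing of the samples by number was thus neither shown nor excluded. With a replicate block 6 members were higher and 4 lower, the added one being Pkm (edgeR adjusted p = 0.0499). It gave 1619 higher and 1449 lower genes in all. Eno3, near 0, turned to -0.0098 with RLE scaling, -0.0052 with DESeq2 and -0.075 with the replicate block, and ran from -0.47 to 0.28 without 1 library (-0.13 without male replicate 1). Gpi1 turned to 0.060 with limma-voom and 0.024 with the offset, and ran from -0.095 to 0.063 without 1 library. Pdk3 ran from -0.14 to 0.015 and Pdhb from -0.012 to 0.24 across the same omissions. By raw counts instead of per length, the female minus male difference in share was 5.61 percentage points for Slc2a3, -3.46 for Pfkp, 6.25 for Ldhb, 12.5 for Pdk1 and 19.2 for Slc16a3, since gene lengths differ. Pfkfb1, Aldoc and the second Aldoa row rest on the fewest counts, and the part of depth in their missing calls was not tested.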
